A study of Mus musculus with 4 samples.

Results

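Reln, Vldlr, Lrp8 and Dab1 form the core of the Reelin pathway, and they were followed here as 4 genes out of 55422 in single-nucleus RNA profiles of the adult mouse hippocampus. The genes were fixed by name, found by their Ensembl identifiers, and counted as unique molecular identifiers (UMIs, each standing for 1 captured RNA molecule). UMIs were summed per library and cell class over barcodes with at least 5000 UMIs for neurons and at least 1000 UMIs for glia. The study compared 2 Control libraries (genotype Kat6a-f/f) with 2 Kat6a-cKO libraries (genotype NEX-cre, Kat6a-f/f), so the floxed Kat6a allele was present in both groups and the cre transgene only in the second. KAT6A is a histone acetyltransferase, and NEX-cre is known to act in forebrain excitatory neurons; the deletion is thus not directed at inhibitory neurons, Cajal-Retzius cells or glia. The labels give no strain and no number of animals per library, so p-values measure the spread between these libraries, which may be technical in part.

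Reelin, the product of Reln, is a large secreted protein of the extracellular matrix, known for guiding the layering of the cortex and the hippocampus and for acting at adult synapses. It binds the very low density lipoprotein receptor (Vldlr) and the apolipoprotein E receptor 2 (Lrp8), and clustering of these receptors leads Src family kinases to phosphorylate the cytoplasmic adaptor Dab1. Phosphorylated Dab1 recruits adaptor proteins that reach the cytoskeleton and cell adhesion, and is then marked for degradation.

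In the GRCm38 assembly (GENCODE M21 annotation), Reln lies on the minus strand at chr5:21884454-22344702 and Vldlr on the plus strand at chr19:27216484-27254231. Both other genes are on the plus strand of chromosome 4, with Lrp8 at chr4:107802261-107876840 and Dab1 at chr4:103619359-104744844. Annotated genes overlap Reln in 7 places, of which only the antisense gene Gm10475 had any UMIs (52). Whether the authors counted by strand is not given in the sources used here, so reads from Reln and that gene cannot be told apart. The 4 overlapping genes of Lrp8 and Dab1 had 0 UMIs and none overlapped Vldlr. Because nuclei hold unspliced RNA and the genes differ in length, each gene is compared between classes and never with another gene.

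The libraries held 171323466 to 186897245 counts, with 7911 to 8442 barcodes at 5000 UMIs or more, and 15 to 20 of these barcodes were shared by any pair of libraries. Clustering left out the 4 genes, and 20 classes with at least 20 nuclei in every library were tested for genotype. An entry for the cre transgene had 0 UMIs in Control in every class. In Kat6a-cKO it had 112 UMIs in CA1, 83 in CA3 and 11 in dentate granule nuclei (0.145 and 0.190 CPM). Among classes outside the excitatory neurons it had 5 UMIs in oligodendrocytes (0.548 and 1.16 CPM), 2 in Pvalb interneurons, 1 in astrocytes and 1 in microglia. It had 0 in 294 Lamp5, 206 Sst and 220 Cck interneurons, which allows up to 0.710, 0.881 and 0.699 CPM from counting error alone. CPM is a gene's UMIs divided by all UMIs of its class in the library, on the common scale of that name. Kat6a itself was 63.7 and 69.1 CPM in CA1 of Control and 63.1 and 64.6 in Kat6a-cKO; it was counted over the whole gene, so it checks nothing about the deleted stretch.

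Reln, the ligand, was read out mainly in Cajal-Retzius cells, the early-born neurons that line the hippocampal fissure, and in part of the inhibitory interneurons. Cajal-Retzius nuclei held 9178 and 9374 CPM in Control against 9729 and 8851 CPM in Kat6a-cKO, a mean of 9283 ± 367 (SD, n = 4 libraries, 73 nuclei). The groups overlapped, and every library was far above every other class. Sst interneurons, the second class, held 957 and 784 CPM in Control against 872 and 907 CPM in Kat6a-cKO, so that the Cajal-Retzius mean was 10.6-fold higher.

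Lamp5 interneurons, which include neurogliaform cells, held 694 and 689 CPM in Control against 1004 and 1110 CPM in Kat6a-cKO. Both Kat6a-cKO libraries were above both Control libraries. Over all libraries the Lamp5 and Sst ranges overlapped, with means of 874 and 880 CPM, but the order depended on genotype: the Control mean was higher in Sst (870 against 691 CPM) and the Kat6a-cKO mean was higher in Lamp5 (1057 against 889 CPM). Cck interneurons came next at 411, 454, 447 and 463 CPM, with no overlap with Lamp5 and 10.96-fold above Vip interneurons. Vip interneurons averaged 40.5 ± 16.5 CPM and Pvalb interneurons 26.6 ± 4.94 CPM, and these classes overlapped.

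Every named excitatory and glial class had a mean of at most 21.2 CPM for Reln, and neighbours in that lower part of the order overlapped. For scale, RNA outside nuclei, taken from barcodes with 20 to 200 UMIs, held 13.8 and 14.0 CPM of Reln in Control against 20.7 and 24.7 CPM in Kat6a-cKO. The highest glial value, the 21.2 CPM mean of oligodendrocytes, came from 1 library: Control replicate 2 had 202 Reln UMIs (62.9 CPM), of which 141 lay in 3 nuclei, while the other libraries had 6.57 to 8.50 CPM. That library's oligodendrocytes also had a Cajal-Retzius marker sum of 32.7 CPM against 8.22 to 10.7 CPM in the others, and its part in the Reln value was not tested.

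**Figure D1:**
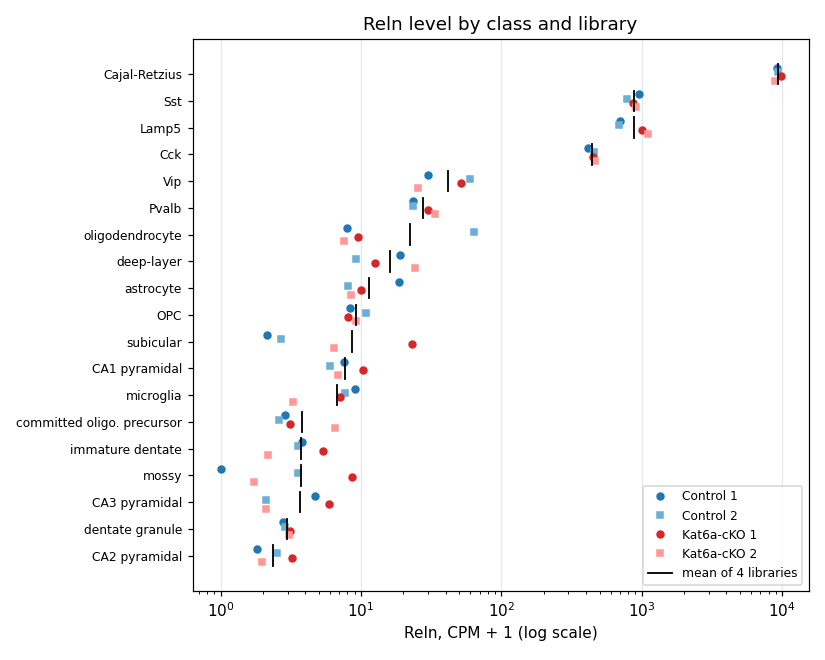
Reln level (CPM + 1, log scale) in 19 classes, ordered by mean; each point is 1 library, blue for Control and red for Kat6a-cKO, and the bar is the mean of 4 libraries. Cajal-Retzius nuclei stand at 9283 CPM, Sst, Lamp5 and Cck interneurons between 411 and 1110 CPM, and the remaining classes below 63 CPM.

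A few nuclei therefore carried most of the ligand's RNA. Cajal-Retzius nuclei (here from 1000 UMIs, 310 nuclei) and inhibitory neurons together held 87.4% ± 0.838 (SD, n = 4 libraries) of all Reln UMIs, with 7.94% of all UMIs and 6.42% of the barcodes. The Cajal-Retzius share was 36.3% and 33.7% in Control against 31.01% and 34.1% in Kat6a-cKO. Lamp5 interneurons held 15.7% and 15.7% in Control against 22.2% and 20.95% in Kat6a-cKO, without overlap. Sst interneurons held 17.1% and 20.0% in Control against 15.3% and 14.0% in Kat6a-cKO. With 2 libraries against 2, the exact permutation test (two-sided) cannot go below p = 0.333, which both shares reached.

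**Figure D2:**
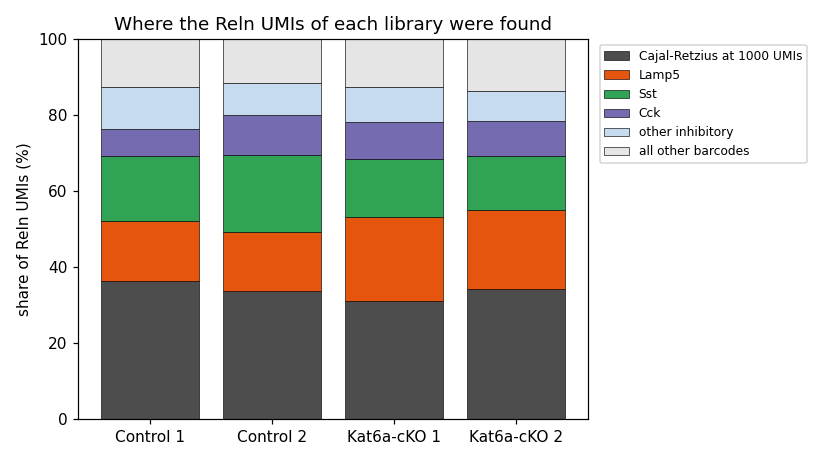
Share of all Reln UMIs of a library (%, barcodes with at least 1000 UMIs) by class, 1 bar per library. Cajal-Retzius nuclei hold 31.01% to 36.3%, and the Lamp5 part is 15.7% in both Control libraries and 20.95% and 22.2% in Kat6a-cKO.

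After thinning each nucleus to 2000 UMIs, Reln was found in 100% of Cajal-Retzius nuclei, 64.9% ± 5.79 of Sst, 47.4% ± 1.38 of Lamp5 and 38.05% ± 5.34 of Cck interneurons. It was found in 8.97% of Vip and 5.79% of Pvalb interneurons. In every named excitatory or glial class the mean over the 4 libraries was at most 1.79%, with 5.17% in 1 library, Kat6a-cKO replicate 2 of deep-layer nuclei; microglia, which should lack Reln, had 0.987%. Unnamed clusters were not thinned. Unthinned shares were 90.0% in Sst, 66.7% in Lamp5 and 1.43% in microglia, at median depths of 16200, 14286 and 2404 UMIs. Thinning left out 420 of 1925 microglia and 0 of the interneurons. In Lamp5 interneurons the thinned share was 46.3% and 46.8% in Control against 49.4% and 47.0% in Kat6a-cKO, so the groups differed by less in the share of nuclei than in CPM.

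The comparison of genotypes asked whether any of the 4 genes changed in a class of nuclei when the deletion was directed at excitatory neurons. Tests were edgeR's quasi-likelihood test on the sums, with Benjamini-Hochberg adjustment over all genes of a class. The genes passed the filter on low counts in 72 of 80 gene and class pairs (Reln in 15 classes, Vldlr in 19, Lrp8 in 18 and Dab1 in 20). In all classes together, 0.184% of the tests over all genes were called, and 2 of the 72 were called, both for Reln, in Lamp5 interneurons and in subicular nuclei. In subicular nuclei Reln passed the filter only through the Kat6a-cKO libraries. At an unadjusted p under 0.05 there were 8 of 72, against 7.65% of all genes.

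In Lamp5 interneurons Reln rose 1.55-fold in Kat6a-cKO, from 694 and 689 CPM to 1004 and 1110 CPM (log2 fold change 0.64 ± 0.09 SE, n = 2 against 2; edgeR adjusted p = 0.0206). It was the 1 gene called of 10236 in that class, a background of 0.00977%. Both Kat6a-cKO libraries lay above both Control libraries, and the log2 fold change was 0.58 to 0.68 without each library in turn. Subtracting estimated free RNA ended the call (0.58, edgeR adjusted p = 0.221). Of 1436 and 1342 Reln UMIs in Control, 3.34 and 3.04 were estimated as free RNA. In Kat6a-cKO it was 4.98 and 3.38 of 2318 and 2126. The cause of the lost call was not tested. The summed Cajal-Retzius list (7 genes) was 62.8 and 76.0 CPM in Control against 88.4 and 97.6 in Kat6a-cKO, beside 3260.5 CPM in Cajal-Retzius nuclei. Nearly all of it was Ndnf (62.8, 75.5, 86.2 and 96.6 CPM), a gene of the Lamp5 list too. Of its other genes, Lhx1, Lhx5 and Nhlh2 were at 0 in all libraries, Trp73 was at 0 in Control and at 0.433 and 0.522 CPM in Kat6a-cKO, and Ebf3 and Ebf2 were at most 0.867 CPM. Groups overlapped for the Lamp5 list (672, 733, 705 and 769 CPM), the Sst list (284, 215, 299 and 248 CPM) and the Cck list (2174, 2511, 2490 and 3013 CPM), but not for the Pvalb list (266, 240, 273 and 277 CPM), which was higher in Kat6a-cKO, and the Vip list (3.87, 4.11, 2.17 and 3.13 CPM), which was lower. The part of these markers in the Reln rise was not tested. More cells of a Reln-rich kind and more RNA per cell cannot be told apart in such sums, so the clusters within the class were read one by one.

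The Lamp5 class was made of 3 clusters, and these fits were added after seeing the data. The cluster led by Kit, a receptor tyrosine kinase (120 nuclei), had the highest Reln level, 2332 and 2263 CPM in Control against 3625 and 3947 CPM in Kat6a-cKO. Its groups did not overlap, and the edgeR log2 fold change was 0.73 ± 0.13 (adjusted p = 0.0318), with 0.127% of its 5531 genes called. The median nucleus held 23 and 30 Reln UMIs in Control against 35.5 and 52 in Kat6a-cKO, at median depths of 12473 and 13281 against 11254 and 12860 UMIs. The cluster made up 20.1% and 20.2% of Lamp5 nuclei in Control against 22.5% and 23.9% in Kat6a-cKO. Of the Lamp5 markers in it, Ndnf (316, 399, 403 and 415 CPM), which is on the Cajal-Retzius list too, and Kit (942, 977, 1107 and 1036 CPM) were higher in both Kat6a-cKO libraries. Id2 was lower in both (21.98, 20.98, 17.1 and 17.1 CPM), and groups overlapped for Lamp5, Hapln1 and Cplx3; the part of these markers was not tested. The Reln call was lost without Control replicate 1 (0.77, adjusted p = 0.859), without Control replicate 2 (0.71, adjusted p = 0.898) and without Kat6a-cKO replicate 2 (0.68, adjusted p = 0.155).

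The cluster led by Sfta3-ps (163 nuclei) held 690 and 640 CPM in Control against 830 and 757 CPM in Kat6a-cKO (0.28 ± 0.15, edgeR adjusted p = 0.976), also without overlap. The cluster led by Prlr, the prolactin receptor gene (269 nuclei), held 135 and 229 CPM in Control against 217 and 105 CPM in Kat6a-cKO, with overlap between the groups. Without the Kit-led nuclei the Lamp5 class gave a log2 fold change of 0.17 ± 0.13 (edgeR adjusted p = 0.967). The Kit-led nuclei held 59.1% and 56.3% of the Lamp5 Reln UMIs in Control against 64.0% and 76.0% in Kat6a-cKO.

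No change of Reln was called in the other main sources. Cajal-Retzius nuclei taken from 1000 UMIs held 9766, 9899, 9817 and 9625 CPM, with a log2 fold change of 0.00 ± 0.09 and a 95% interval of 0.888 to 1.12-fold. Sst interneurons had 0.04 ± 0.13 (0.864 to 1.22-fold) and Cck interneurons 0.09 ± 0.11 (0.911 to 1.24-fold). All inhibitory neurons together held 443, 430, 497 and 524 CPM, with both Kat6a-cKO libraries above both Control libraries (0.24 ± 0.07, edgeR unadjusted p = 0.00302, adjusted p = 0.333); this sum includes the Lamp5 nuclei. The difference between the Lamp5 effect and that of another class, tested as an interaction in pairs added after seeing the data, was 0.60 ± 0.14 against Sst, 0.56 ± 0.13 against Cck and 0.64 ± 0.16 against Cajal-Retzius nuclei. Unadjusted p-values were 0.000456, 0.000499 and 0.000133, but none passed in edgeR over all genes (adjusted p = 0.338, 0.458 and 0.404), and 0 of all genes were called in these 3 pairs, with 464, 460 and 470 at an unadjusted p under 0.05. Without Control replicate 2, with 1 Control library left, the difference from Sst was 0.72. Sst interneurons held 957 and 784 CPM in Control, so this value depends on which Control library is kept. The values without each other library are not reported here. Without the filter on low counts the difference from Sst passed (0.61, edgeR adjusted p = 0.00762).

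Among excitatory nuclei, Reln was spread over many nuclei in 1 cluster that could not be named from the markers and had Klhl1, Grm8 and Fras1 among its leading genes (820 nuclei). Its leading genes Gm42705, Gm42707 and Gm6260 also led the subicular cluster. It expressed Slc17a7, the vesicular glutamate transporter of excitatory neurons, at 94.2 to 115 CPM. Reln stood at 19.4 and 17.0 CPM in Control against 43.0 and 45.0 CPM in Kat6a-cKO, a 2.40-fold rise (log2 fold change 1.27 ± 0.15, edgeR adjusted p = 0.00646). Both Kat6a-cKO libraries were above both Control libraries, and the log2 fold change was 1.16 to 1.41 without each library in turn. Other alternatives, among them subtracting free RNA and keeping doublets, were not run for this cluster. Reln RNA outside nuclei was 13.8 and 14.0 CPM in Control against 20.7 and 24.7 CPM in Kat6a-cKO, and its part was not tested. Reln UMIs were found in 26.5% and 16.7% of the cluster's nuclei in Control against 34.7% and 32.1% in Kat6a-cKO, without thinning. The share was 3.33% to 5.22% in CA1 nuclei, 6.19% to 10.9% in deep-layer nuclei and 10.0% to 15.4% in another unnamed excitatory cluster, led by Dcn and Rxfp1, all at lower median depths. Without its 3 richest nuclei per library the level was 15.8 and 9.96 CPM in Control against 37.4 and 26.3 CPM in Kat6a-cKO. The nucleus with most Reln UMIs held 8 and 9 in Control against 17 and 43 in Kat6a-cKO.

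This cluster was 1 of 8 unnamed neuronal clusters fitted, all after the data had been seen, and 6 of them had enough Reln to test. In it 0.0502% of 11962 genes were called, and 0.226% in all 8 clusters together; of 29 fits of the 4 genes, this was the 1 called. The summed inhibitory marker list in it was 12.4 and 11.1 CPM in Control against 18.9 and 32.0 CPM in Kat6a-cKO, against 1351 CPM in inhibitory neurons. The Cajal-Retzius list was 1.79 to 5.68 CPM over the libraries. Their part in the result was not tested. The cluster held 166 and 138 nuclei in Control against 320 and 196 in Kat6a-cKO, and the cre entry had 10 and 2 UMIs there in Kat6a-cKO.

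**Figure D3:**
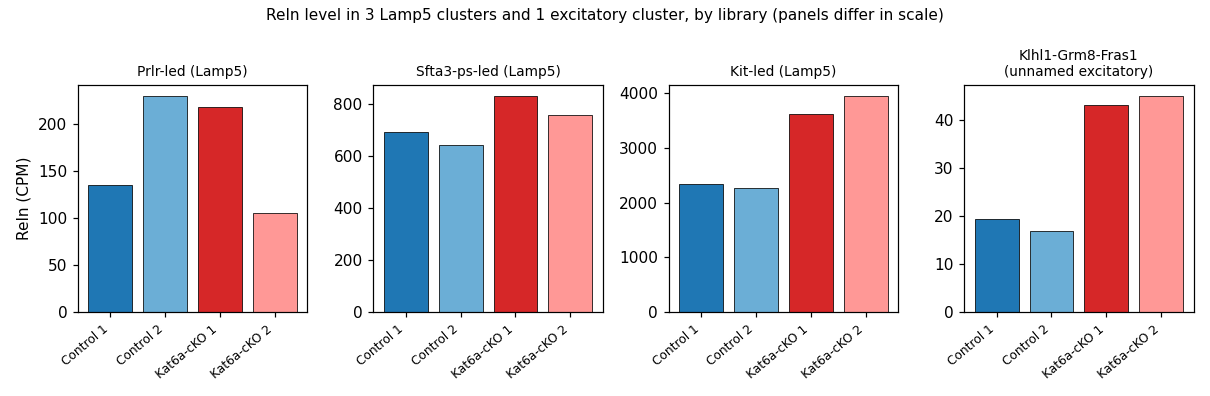
Reln level (CPM) per library in the 3 Lamp5 clusters and in the excitatory cluster with Klhl1, Grm8 and Fras1 among its leading genes; each bar is 1 library and each panel starts at 0 with its own scale. Control and Kat6a-cKO bars are mixed in the Prlr-led cluster, while both Kat6a-cKO bars are higher in the other 3 panels.

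The call in subicular nuclei rested on few molecules. Reln UMIs numbered 3 and 3 in Control against 53 and 16 in Kat6a-cKO, and 37 of the 53 came from 1 nucleus. Its level was 1.14 and 1.69 CPM in Control against 22.1 and 5.39 CPM in Kat6a-cKO. Reln passed the filter on low counts only through the Kat6a-cKO libraries, where it was high, so its call carries little weight. The fitted log2 fold change was 3.25 ± 0.73 (edgeR adjusted p = 0.0495), in a class where 1.05% of 10367 genes were called. Without Kat6a-cKO replicate 1 it was 1.95 (adjusted p = 0.466), and with doublets kept, which changed the clusters, 1.35 (adjusted p = 0.149). The Cajal-Retzius list was 12.1 CPM in that library and 4.57 to 6.75 CPM in the others, with Trp73 at 2.08 CPM in that library and Lhx1, Lhx5 and Nhlh2 at 0. The class's own subicular list was 438 and 435 CPM in Control against 361 and 366 in Kat6a-cKO. The deep-layer list was 166 and 150 CPM in Control against 213 and 180 in Kat6a-cKO, a rise that was nearly all Hs3st4 (14.5, 11.8, 57.5 and 38.7 CPM). Of its other genes, Rprm was higher in both Kat6a-cKO libraries (1.14, 0.563, 5.00 and 2.69 CPM), Syt6 was lower (0.381 and 0.563 CPM in Control against 0 in both), and the groups overlapped for Tle4, Fezf2 and Foxp2. Deep-layer nuclei held 8.15 to 23.1 CPM of Reln, and the part of these markers was not tested. In oligodendrocytes the log2 fold change was -2.10 ± 0.66 (edgeR adjusted p = 0.352). It became 0.12 without Control replicate 2 and -2.97 without Control replicate 1, each with 1 Control library left.

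Vldlr, the receptor also bound by other lipoproteins, was highest in the oligodendrocyte lineage. Committed oligodendrocyte precursors held 100.4 and 51.5 CPM in Control against 71.9 and 113.4 CPM in Kat6a-cKO, with overlap between groups and with the next class. Mature oligodendrocytes held 71.1 and 61.6 CPM in Control against 67.7 and 69.1 CPM in Kat6a-cKO, a mean of 67.4 ± 4.09, which was 1.62-fold above Vip interneurons without overlap. From Vip interneurons (41.7 CPM) through immature dentate granule nuclei, OPC (oligodendrocyte precursor cells), Cck and Lamp5 interneurons to mature dentate granule nuclei (27.1 CPM) neighbouring classes overlapped. Vldlr RNA outside nuclei was 30.3 to 47.1 CPM, and the oligodendrocyte level was above it in every library while microglia held 13.8 ± 1.71 CPM. Cajal-Retzius nuclei, the richest in ligand, had the lowest mean for this receptor (10.4 ± 6.80 CPM from 1000 UMIs), but on 1 to 7 UMIs per library, and their range overlapped that of subicular nuclei.

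Lrp8, the receptor that also partners synaptic NMDA receptors, had another order. Mossy cells, the excitatory neurons of the hilus, held 76.2 and 97.0 CPM in Control against 78.9 and 96.8 CPM in Kat6a-cKO. Immature dentate granule nuclei held 99.8 and 88.6 CPM in Control against 82.2 and 73.4 CPM in Kat6a-cKO, so both classes overlapped at means of 87.2 and 86.0 CPM. Cck (69.2 CPM), Sst (62.4), Pvalb (51.7), Vip (49.9) and Lamp5 interneurons (46.9) followed with overlapping neighbours, and astrocytes were close at 46.5 CPM. CA3 nuclei held 40.8 ± 4.07 CPM and CA1 nuclei 20.3 ± 2.73 CPM. Oligodendrocytes, near the top for Vldlr, were lowest for Lrp8 with 4.35 ± 2.47 CPM, next to microglia with 6.44 ± 2.41 CPM. Lrp8 RNA outside nuclei was 32.1 to 49.1 CPM. In Control replicate 1 the estimate of such RNA was 19.7 of 507 Lrp8 UMIs in CA3. It was 136 in oligodendrocytes of that library, where 14 were counted. The part of this RNA in the order of classes was not tested.

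Neither receptor was called in any class. The edgeR log2 fold changes of Vldlr ran from -0.34 in Sst interneurons to 0.27 in committed oligodendrocyte precursors, with 7 of 19 above 0 and a lowest adjusted p of 0.831; DESeq2 called 0 as well. Those of Lrp8 ran from -0.33 in subicular nuclei to 0.35 in OPC, with 9 of 18 above 0 and a lowest adjusted p of 0.717. At an unadjusted p under 0.05 both counts were 0. In the largest classes the differences were bounded as follows: in dentate granule nuclei the 95% interval was 0.799 to 1.09-fold for Vldlr and 0.877 to 1.09-fold for Lrp8, and in CA1 0.804 to 1.07-fold and 0.812 to 1.21-fold.

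**Figure D4:**
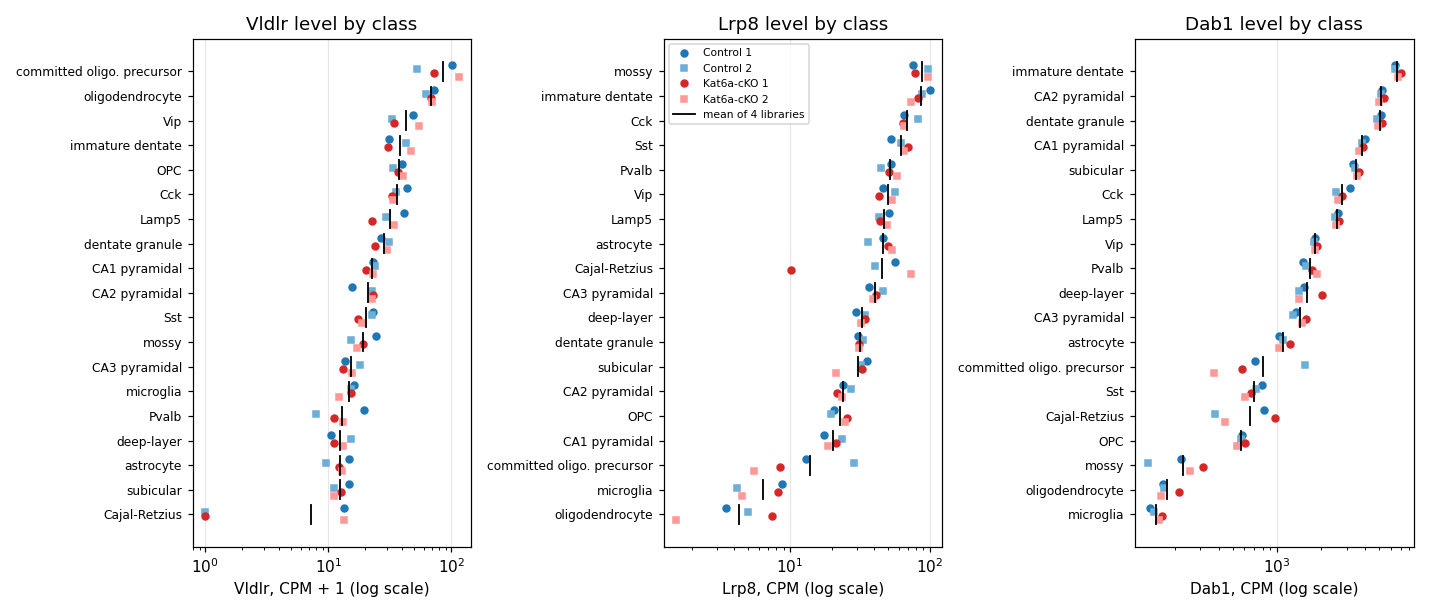
Level of Vldlr (CPM + 1), Lrp8 and Dab1 (CPM) in 19 classes, log scales, each panel ordered by its own mean; each point is 1 library and the bar is the mean of 4. Oligodendrocytes are second for Vldlr (67.4 CPM) and last for Lrp8 (4.35 CPM), and CA3 and mossy nuclei stand below the other principal neurons of the hippocampus for Dab1.

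Dab1, the adaptor, was highest in principal neurons of the dentate gyrus, CA2 and CA1. Immature dentate granule nuclei held 6454, 6431, 7033 and 6676 CPM, above every library of the next class. CA2 (5184 ± 150 CPM) and mature dentate granule nuclei (5037 ± 176 CPM) overlapped, and CA1 followed with 3844 ± 141 and subicular nuclei with 3475 ± 135 CPM. CA3 nuclei held 1358 and 1292 CPM in Control against 1586 and 1482 CPM in Kat6a-cKO, a mean of 1430 ± 131. Mossy cells were lower still with 221 and 131 CPM in Control against 312 and 253 CPM in Kat6a-cKO. No CA3 or mossy library reached a CA1 or CA2 library.

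Interneurons divided as well. Cck (2784 CPM) and Lamp5 (2569 CPM) held most Dab1, Vip and Pvalb 1826 and 1677 CPM, and Sst, a main source of ligand, 698 ± 79.3 CPM. Cajal-Retzius nuclei had 652 ± 287 CPM. Among glia, astrocytes held 1096 ± 87.0 CPM, oligodendrocytes 178 ± 23.9 and microglia 150 ± 12.4 CPM; Dab1 RNA outside nuclei was 952 to 1249 CPM. After thinning, Dab1 was found in 99.9% of CA1, 72.4% of CA3, 82.8% of astrocyte and 23.3% of mossy nuclei, against 23.1% of microglia. By library the mossy share was 21.2% and 13.5% in Control against 32.8% and 25.9% in Kat6a-cKO, against 22.4% to 24.9% in microglia, so Control lay below and Kat6a-cKO above the microglial range. Unthinned shares were 77.4% in mossy cells and 29.2% in microglia, at median depths of 27169 and 2404 UMIs.

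Dab1 was not called in any of 20 classes, with 16 log2 fold changes above 0 and 4 with an unadjusted p under 0.05. Over all genes and classes 7.65% of edgeR tests had an unadjusted p under 0.05. The 20 classes are not independent, since the inhibitory class includes the interneuron classes. Dab1 was higher in both Kat6a-cKO libraries of CA3, mossy, immature dentate granule and subicular nuclei, of Pvalb and Vip interneurons and of microglia. It was lower in both of Sst interneurons and committed oligodendrocyte precursors. The smallest exact permutation p for 2 libraries against 2 is 0.333, and the share of all genes separated in this way was not counted. No pattern of Dab1 over the classes can therefore be read from this list. The edgeR log2 fold change was 0.22 ± 0.08 in CA3 (1.16-fold, 95% interval 1.05 to 1.29-fold, unadjusted p = 0.0143, adjusted p = 0.417). In mossy cells it was 0.74 ± 0.20 (1.67-fold, unadjusted p = 0.00186, adjusted p = 0.156). Without Control replicate 1 the log2 fold change was 0.29 in CA3 and 1.17 in mossy cells. Without Kat6a-cKO replicate 2 it was 0.91 in mossy cells. Each of these fits leaves 1 library in a group. The libraries furthest apart in both classes were Control replicate 2 and Kat6a-cKO replicate 1 (1292 and 1586 CPM in CA3, 131 and 312 CPM in mossy cells). A fit without either of these rests on libraries that lie closer together, and its value is not reported here. Without the filter on low counts Dab1 passed in CA3 and in mossy cells (edgeR adjusted p = 0.0188 and 1.37e-05). In immature dentate granule nuclei, with the levels given above, the log2 fold change was 0.15 ± 0.10 (edgeR unadjusted p = 0.165, adjusted p = 0.705). Dentate granule markers in them summed to 3184 and 3386 CPM in Control against 3646 and 3674 CPM in Kat6a-cKO. Of the 8 genes, mostly Rfx3 by level, 2 were higher and 3 lower in both Kat6a-cKO libraries. Every gene of the class's own list was lower in both, among them Sox11 (386, 322, 260 and 180 CPM) and Dcx (202, 220, 184 and 178 CPM). The part of the markers of both lists was not tested. Subicular nuclei held 3323, 3406, 3620 and 3552 CPM (0.11 ± 0.06, edgeR unadjusted p = 0.0688, adjusted p = 0.560). Microglia, at which the deletion is not directed, held 135, 145, 164 and 155 CPM (0.22 ± 0.14, edgeR unadjusted p = 0.125, adjusted p = 0.665). Vip interneurons held 1813, 1794, 1879 and 1816 CPM (0.04 ± 0.12, edgeR adjusted p = 0.995). The thinned share of nuclei with Dab1 was higher in both Kat6a-cKO libraries of CA3 (68.6%, 67.2%, 78.4% and 75.6%), of mossy cells, of oligodendrocytes (25.3%, 24.2%, 32.2% and 27.5%) and of astrocytes (81.4%, 81.3%, 85.0% and 83.7%). It was lower in both of Sst interneurons (60.7%, 52.5%, 51.7% and 51.1%) and of OPC, the oligodendrocyte precursor cells (64.1%, 65.3%, 63.5% and 59.3%). In each of these classes the exact permutation p was 0.333, the smallest possible. Thinned to 1000 UMIs, the groups stayed apart in CA3 (57.6%, 53.0%, 63.9% and 60.8%) and mossy cells (9.09%, 7.69%, 25.9% and 16.7%). They overlapped in Sst interneurons (42.7%, 33.9%, 38.1% and 47.7%), OPC, astrocytes and oligodendrocytes. Dentate granule markers, from the class where Dab1 is abundant, summed to 139 and 169 CPM in Control against 191 and 188 CPM in Kat6a-cKO mossy cells, and to 178 and 174 against 182 and 188 CPM in CA3. Most of that sum was Rfx3 (105, 127, 135 and 146 CPM in mossy cells, 153, 153, 160 and 163 CPM in CA3). Of the 8 genes, 2 were higher and 1 lower in both Kat6a-cKO libraries of mossy cells, and 2 higher and 2 lower in CA3. The immature dentate list in mossy cells (41.8, 42.7, 70.1 and 55.0 CPM) was higher in both Kat6a-cKO libraries. The CA1 list there, mostly Man1a, was lower in both (197, 231, 138 and 127 CPM), as was the CA3 list, mostly Trps1 (6866, 7115, 6157 and 6493 CPM). In CA3 the CA1 list was lower in both Kat6a-cKO libraries too (135, 140, 133 and 121 CPM). The part of these markers in the Dab1 values was not tested.

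The difference between the CA3 and the CA1 effect on Dab1, tested as an interaction with the library as a block, was 0.27 ± 0.05 (unadjusted p = 0.000165, edgeR adjusted p = 0.101). Against dentate granule nuclei it was 0.17 ± 0.05 (unadjusted p = 0.00218, adjusted p = 0.292). In the 4 planned pairs of classes 0.109% of tests were called, and 0 were for these genes. The first difference passed without Kat6a-cKO replicate 2 (0.29, adjusted p = 0.0139), and the second without Control replicate 1 (0.22, adjusted p = 0.000492) or 2 (0.18, adjusted p = 0.00588). In CA1 and dentate granule nuclei Dab1 itself differed by -0.04 ± 0.08 and 0.04 ± 0.07. In Pvalb interneurons both Kat6a-cKO libraries (1747 and 1868 CPM) were above both Control libraries (1507 and 1586 CPM; 0.23 ± 0.09, edgeR adjusted p = 0.998). Sst interneurons went the other way without overlap, from 793 and 724 CPM to 666 and 607 CPM (-0.25 ± 0.12, edgeR unadjusted p = 0.0562, adjusted p = 0.938). In committed oligodendrocyte precursors the log2 fold change was -1.26 ± 0.38 (edgeR adjusted p = 0.455). Control replicate 2 held 1568 CPM there against 373 to 712 CPM elsewhere. Without Control replicate 1 the log2 fold change was -1.70, and without Control replicate 2 it was -0.61. With doublets kept it was -0.30 (edgeR adjusted p = 0.948). Dentate granule markers in this class summed to 1815 CPM in Control replicate 2 and to 713 to 1474 CPM in the others.

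**Figure D5:**
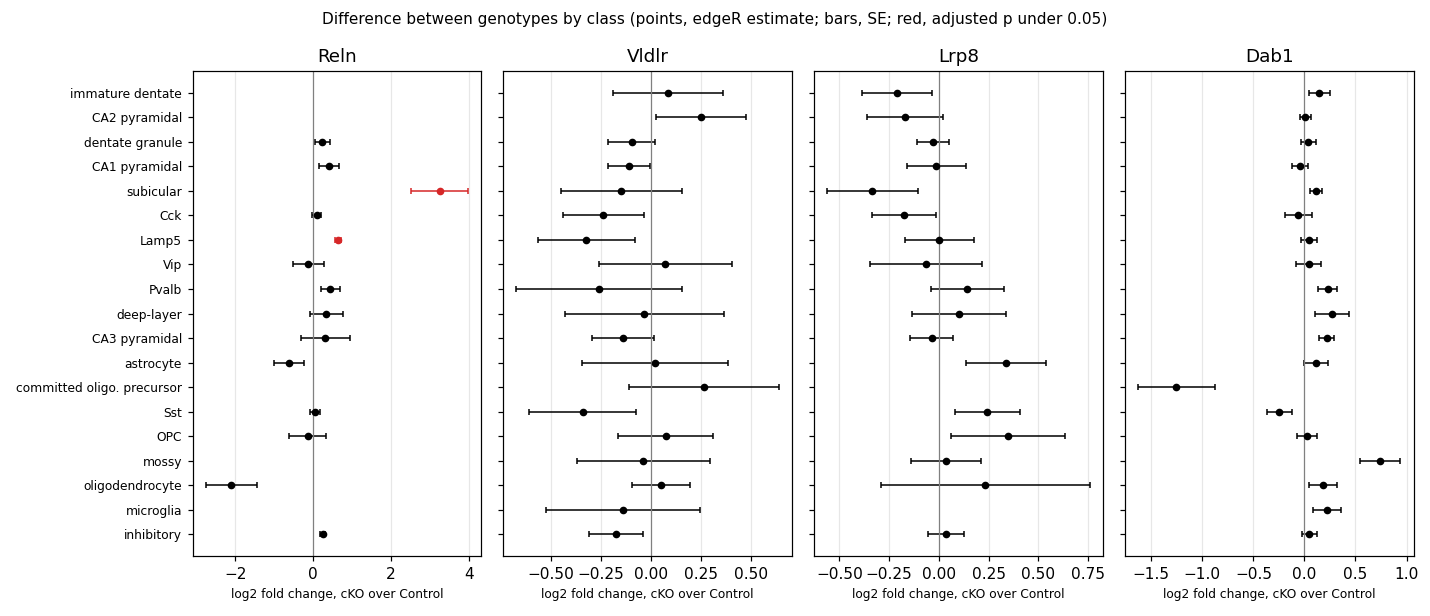
Log2 fold change (Kat6a-cKO over Control, edgeR) of each gene by class; points are estimates, bars are 1 SE and red marks an adjusted p under 0.05. Only Reln has red points, in Lamp5 (0.64) and subicular nuclei (3.25), and the axes differ between panels.

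A list of 66 further genes of the pathway was read from the same fits, and 64 of them were tested in at least 1 class. Of 1080 gene and class tests, 0 were called up and 1 was called down by edgeR, while DESeq2, without the filter on low counts, called 4 of 1291. Over all genes of the same classes edgeR called 394 of 214271 (0.184%) and DESeq2 604 of 439418. At an unadjusted p under 0.05, 23 were up and 39 down, which is 5.74% against 7.65% of all genes; the median log2 fold change was 0.00. The 1 called was Adamts3, a protease that cleaves and inactivates Reelin, in subicular nuclei: 56.9 and 38.9 CPM in Control against 21.8 and 18.0 CPM in Kat6a-cKO (log2 fold change -1.30 ± 0.22, edgeR adjusted p = 0.00813), in a class where 1.05% of genes were called. Its call was lost with doublets kept (-1.06, adjusted p = 0.152), at Leiden resolution 2 (-1.20, adjusted p = 0.0952) and after subtracting free RNA (-1.42, adjusted p = 0.0643). The lower subicular and the higher deep-layer marker sums given above for this class stand beside this call too, and their part in it was not tested.

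By role, the processing proteases gave 1 call in 69 tests, with Adamts3 highest in mossy cells (245 CPM) and Adamts2 in subicular nuclei (246 CPM). The other receptors and ligands gave 0 of 184, with Apoe highest in astrocytes (2294 CPM) and App in Cck interneurons (813 CPM). The genes of receptor turnover gave 0 of 56, among them Adam10 and Mylip, a ubiquitin ligase for both receptors, which were highest in microglia (540 and 240 CPM). The kinases and degradation factors of Dab1 gave 0 of 174, with Fyn at 2540 CPM in committed oligodendrocyte precursors and Abl1 at 262 CPM in microglia.

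Downstream, the adaptor and small GTPase arm gave 0 of 160, with Cdh2 (N-cadherin) highest in astrocytes (1062 CPM) and Rapgef1 in committed oligodendrocyte precursors (650 CPM). The PI3K, Gsk3 and cytoskeleton arm gave 0 of 284, with Map1b, a microtubule-associated protein, highest in dentate granule nuclei (1107 CPM). The Lis1 complex gave 0 of 73, with Pafah1b1 (Lis1) highest in oligodendrocytes (684 CPM) and Ndel1 in microglia (100 CPM). The NMDA receptor partners gave 0 of 80, with Grin2a highest in CA1 (4077 CPM) and Grin2b in Vip interneurons (2688 CPM).

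The genes whose level followed each member most closely over 19 classes were found among 12656 genes by Pearson correlation of log2(CPM + 5), as a description in which all points share their libraries. For Reln they were Mrap2 (r = 0.951), Ndnf (0.918), Tspyl2 (0.913), Hspa12b (0.909) and Hs3st5 (0.871); Ndnf was also a marker used to name classes. For Vldlr they were AC118724.1 (0.935), Serinc5 (0.882), Zfp939 (0.849), Ppp1r16b (0.837) and Lamc1 (0.803). AC118724.1 is annotated as a long intergenic RNA at chr19:27145316-27192009, 24475 bases from Vldlr. For Lrp8 they were Ptpn12 (0.892), A830082K12Rik (0.879), Chst10 (0.873), Plxna2 (0.857) and Camsap3 (0.853). For Dab1 they were Kcnj3 (0.887), Tmem231 (0.842), Fam205c (0.812), Fam57b (0.788) and Elmod1 (0.782). The 4 members did not follow each other, with r between -0.29 for Vldlr with Lrp8 and 0.41 for Lrp8 with Dab1.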

How the data were processed

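Nuclei of adult mouse hippocampus were profiled with the 10x Genomics Chromium kit in 2 Control and 2 Kat6a-cKO libraries. The authors deposited raw UMI counts for all barcodes; per the submitters' processing notes the build was mm10 and Seurat 4.0.1 was used. Aligner, annotation and strand setting are not given in the sources used here. Positions are from GENCODE M21 (54673 of 55422 IDs matched with version, 55240 by ID; Lrp8 differs in version).

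The members and gene lists were chosen with earlier results of these data known, and thresholds for naming clusters were set after seeing the data. Scrublet doublets (scanpy 1.11.5; 3.05% to 4.89% of barcodes per library) were left out. Nuclei were clustered by Leiden (leidenalg 0.10.2, resolution 1; 0.4 within inhibitory neurons) on 2000 variable genes and 30 components, without 111 genes, among them the members and the pathway list. A marker gene counted as raised at 2-fold or more over other clusters (5 added to CPM). Lists with at least 50% and at least 3 genes raised could give a name. Of these, the list with most genes among the cluster's 10 leading genes was taken, ties going to the larger share raised. A cluster stayed unnamed if another lineage's list was raised too, or a list not raised held more leading genes. It also did with under 20 nuclei, or with few UMIs and no leading gene of its list. Deposited counts were summed per library and class and tested in edgeR 4.0.16 (R 4.3.3; TMM, filterByExpr, quasi-likelihood, adjusted p under 0.05). Intervals called 95% are 1.96 SE, and with 2 libraries per group they may be too narrow. For Dab1 in subicular nuclei the interval was 1.0002 to 1.17-fold, while edgeR gave an unadjusted p of 0.0688. DESeq2 1.42.0 and the other alternatives are in the closing section. Exact permutation tests used scipy 1.17.1. The fits were tested on simulated data.

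Named genes were the 4 members in every class, of each pathway group the 2 genes with the highest mean CPM plus any gene called, and the 5 genes most like each member; some of these results are not reported here. Clusters fitted one by one, Cajal-Retzius nuclei at 1000 UMIs and the Lamp5 pairs were added after seeing the data. For the clusters fitted one by one, only the main fit and the fits without each library were run.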

Additional observations from a re-analysis of the deposited data

How the results depend on the processing

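Of 72 fits of the members, 64 had an unadjusted p of 0.05 or more; among their 758 values under alternatives 91 changed sign, with 0 calls. The count of members called (2) became 6 without the filter on low counts, 5 with the replicate block, 1 with doublets kept, 0 after subtracting free RNA and 1 to 6 when each library was left out. The block added Dab1 in CA3 (edgeR adjusted p = 0.0141) and mossy cells (0.00227) and Reln in oligodendrocytes (0.000112). Without the filter, added calls were Dab1 in CA3, mossy and committed oligodendrocyte precursors and Reln in oligodendrocytes. Pathway genes called (1) became 4 in DESeq2, 5 without the filter, 7 with the replicate block, 0 with doublets kept, at Leiden resolution 2 or after subtracting free RNA, and 1 to 6 leaving out a library. Calls over all genes (394) became 604, 3106 and 2072 in DESeq2, without the filter and with the replicate block, 66 after subtracting free RNA, and 735 to 2165 leaving out a library. Replicate numbers are not said to pair libraries: deviations of same-numbered libraries correlated from -0.02 to 0.17 over 20 classes (median 0.07). For the 4 planned pairs of classes the members called (0) became 2 without the filter and 0 to 1 leaving out a library, all Dab1 in CA3; for the 3 added pairs, 1 and 0 to 1, all Reln in Lamp5 against Sst. Reln in Lamp5 lost its call after subtracting free RNA (0.58, edgeR adjusted p = 0.221), and the cause was not tested. In the other alternatives run its log2 fold change was 0.58 to 0.68, and the call held in those with 2 libraries per group. Reln in oligodendrocytes ran from -2.97 to 0.12 leaving out a library. Such a fit holds 1 library in the group concerned, so calls and counts from it carry no spread of that group. The subicular calls were lost with doublets kept (Reln 1.35, Adamts3 -1.06). Subtracting free RNA moved Reln in Cajal-Retzius nuclei to 10960 CPM and Dab1 in immature dentate nuclei to 9739 CPM. It took 48.5% to 68.8% of the counts of immature dentate nuclei. In astrocytes, oligodendrocytes, committed oligodendrocyte precursors and microglia it took up to 100%. The subtraction therefore says little in all these classes except Cajal-Retzius nuclei. Thinning to 1000 UMIs gave Reln in 37.4% of Lamp5 and 49.9% of Sst nuclei. Cajal-Retzius nuclei from 5000 UMIs were not tested, with under 20 nuclei in 3 libraries.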

Other observations

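Within named interneuron classes Reln differed between clusters. The Sst cluster led by Tmcc3 and Stac held 1214 ± 108 CPM (SD, n = 4 libraries), against 880 ± 72.9 CPM in the whole class. Of the Pvalb clusters, the one led by Myo1e held 7.45 ± 3.31 CPM, the one led by Sntb1 19.8 ± 25.6 CPM and the one led by Il1rapl2 and Nxph2 119 ± 59.4 CPM. The Cck clusters were close, at 472 ± 38.2 and 390 ± 39.8 CPM. These values were read after the clusters were known, with no test.

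Inhibitory clusters that stayed unnamed ranged more widely. A cluster led by Adamts19 (105 nuclei) held 795 and 948 CPM of Reln in Control against 837 and 817 CPM in Kat6a-cKO, and a mean of 123 CPM of Dab1. A cluster led by Adgrg6 and Meis2 had 0 Reln UMIs in every library. Outside the inhibitory neurons, a cluster of 16 nuclei led by Ndnf, Ebf3 and Trp73, genes of the Cajal-Retzius list, was too small to name. It held means of 2483 ± 201 CPM of Reln and 3897 ± 707 CPM of Dab1 (SD, n = 4 libraries with 1 to 6 nuclei each); Cajal-Retzius nuclei held 652 CPM of Dab1.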
